A study of Mus musculus with 6 samples.

Results

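Neutrophils from the bone marrow (BM) of mice 1 week after injection of LL2 tumor cells were compared with BM neutrophils of naive mice, across every gene with enough counts to be tested. The 4 libraries compared, 2 from naive mice and 2 from one-week LL2 mice, are part of a set of 6, and 12259 of the 38887 genes in the deposited table passed a filter on low counts. Translation initiation, ATP synthesis and glycolysis were left aside. LL2 is the Lewis lung carcinoma line, here carrying luciferase, and the study describes its intravenous injection into C57BL/6 mice as an orthotopic model in which tumor lesions form in the lung. Naive mice carried no tumor, and the third group of 2 libraries came from mice 3 weeks after injection. The labels give neither the age at collection nor the genotype of single mice, and both replicates of a group carry only a number, so the p-values measure the spread between these libraries. An injection without tumor cells is not among the groups, so that tumor and injection cannot be told apart.

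Neutrophils are made in the marrow from dividing precursors that fill a succession of granules, first the primary granules with Mpo and elastase, then the secondary and tertiary granules with lactoferrin and gelatinase, and stop dividing before they are released. Mature cells are short-lived, sense bacterial and tissue signals through Toll-like, cytokine and chemoattractant receptors, and crawl by remodelling actin under the control of small GTPases. Glucocorticoids, the steroid hormones of stress, act on them through a nuclear receptor that switches on a small set of feedback genes.

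The 4 libraries held between 11994158 and 13995296 counts. Levels are given as CPM, the counts of a gene relative to a fixed library total, scaled between libraries by the TMM method, and 3 counts, taken as the smallest detectable number, corresponded to between 0.2 and 0.245 CPM. These limits cover counting error only. Cells had been selected with beads against Ly6G. The Ly6g gene itself was nevertheless low, at 1.11 and 0.491 CPM in naive libraries and at 2.14 and 1.27 CPM in one-week libraries. It had 14 and 6 counts in naive and 32 and 17 in one-week libraries, above the limit of 3. The other neutrophil genes were abundant. S100a8, a subunit of calprotectin, was at 166564 and 189033 CPM in naive and 147327 and 163573 CPM in one-week libraries, and the G-CSF receptor gene Csf3r was at 696 and 736 against 727 and 630 CPM. Of 15 identity genes tested, 1 (6.67%, against 7.99% of all genes) passed the test, Retnlg, described with the granule genes. The second one-week library stood apart in genes of the Y chromosome. Ddx3y had 26 counts there and 0 in each of the other 3, Uty 7 counts against 2, 0 and 0, Eif2s3y 5 and Kdm5d 3 counts against 0. Xist, from the inactive X chromosome, was at 272 and 250 against 127 and 197 CPM, lower at 1 week (log2 fold change -0.69, edgeR adjusted p = 0.0358), so all 4 libraries held it. Their part in the results was not tested, and calls without this library are given with each group of genes.

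Of the genes tested, 518 were higher and 461 lower in neutrophils of one-week LL2 mice at an adjusted p under 0.05, by edgeR's quasi-likelihood test with Benjamini-Hochberg adjustment. These are 7.99% of genes tested, 4.23% higher and 3.76% lower. The median log2 fold change over all genes tested was 0.01. Rises were larger than falls, since 255 of the higher and 91 of the lower genes changed by over 2-fold. Libraries of the 2 groups did not overlap for any of the 979 called genes, but the same held for 53.2% of all genes tested. With library totals in place of TMM factors the split was 575 higher and 263 lower. The calls depended on single libraries. There remained 144 of the 979 without naive replicate 1, 554 without naive replicate 2, 314 without one-week replicate 1 and 213 without one-week replicate 2, and 114 were called in each of these fits. No called gene changed direction in any of them, which follows from libraries that did not overlap. With 1 library left in a group, that library is assumed to vary like the other groups.

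**Figure D1:**
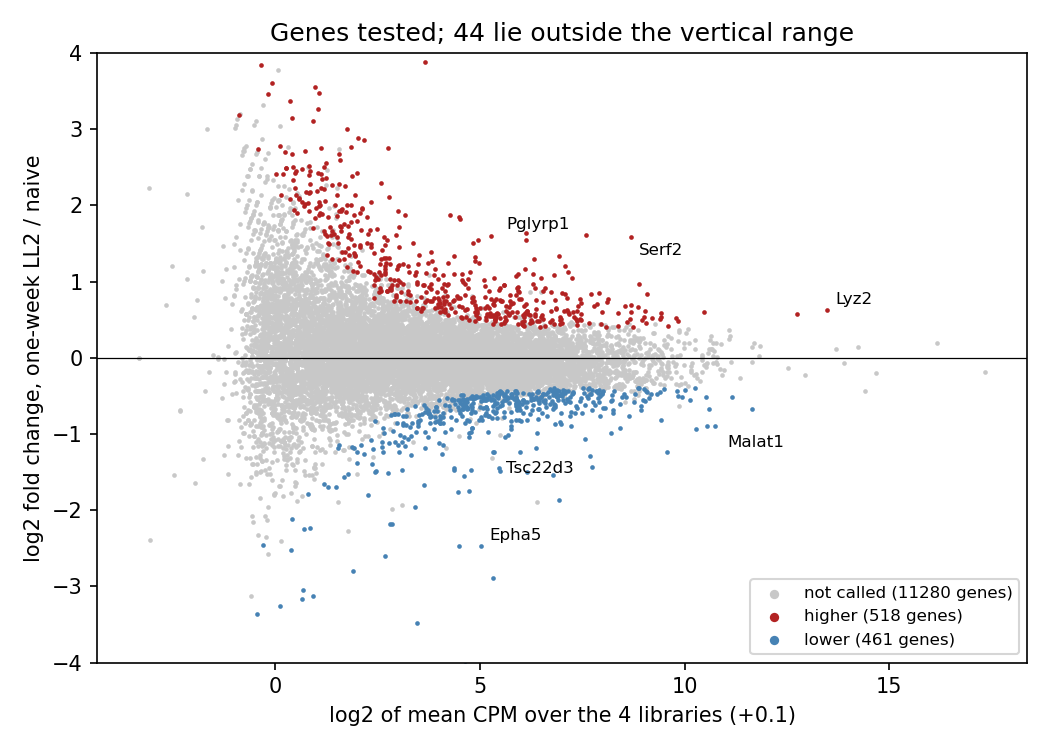
Each point is 1 gene tested, with the log2 of its mean CPM over the 4 libraries on the x axis and the log2 fold change between one-week LL2 and naive neutrophils on the y axis. The 518 higher genes (red) and 461 lower genes (blue) lie at all levels, and Pglyrp1 and Serf2 stand at the top and Epha5 at the bottom among genes of moderate or high level.

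Several of the largest changes by single genes fell on genes best known from other tissues, some of them at low levels. Epha5, an ephrin receptor studied in the nervous system, was at 72.9 and 37.7 CPM in naive libraries and 9.41 and 10.6 CPM in one-week libraries (log2 fold change -2.47, SE 0.261, edgeR adjusted p = 0.000204). The naive libraries differed widely from each other, and the one-week libraries lay below either of them. Akna, which encodes an AT-hook protein described in lymphocytes and at the centrosome, was at 199 and 129 CPM and then at 60.4 and 52.2 CPM. Fhod1, a formin that assembles actin, fell from 43.2 and 24.3 to 10.1 and 9.84 CPM. Dbt, a subunit of the branched-chain keto acid dehydrogenase, fell from 39.6 and 32.8 to 13.4 and 11.3 CPM, and Spag7 from 47.6 and 33.8 to 12.5 and 11.6 CPM.

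Among the rises, Cacnb4, a calcium channel subunit, went from 0.475 and 1.64 to 7.14 and 8.28 CPM (log2 fold change 2.86, SE 0.455, edgeR adjusted p = 0.0029). The mechanosensitive channel gene Piezo2 rose from 0.633 and 2.13 to 5.21 and 6.94 CPM. Cr2, a complement receptor of B cells, was at 3.09 and 4.5 CPM and then at 11.5 and 16.5 CPM. Napb, which takes SNARE complexes apart in vesicle fusion, rose from 5.3 and 11.1 to 25.1 and 34.8 CPM. Serf2 was the most abundant of these, at 182 and 227 CPM in naive and 776 and 453 CPM in one-week libraries, and the one-week libraries differed from each other more than the naive ones. Of the 10 genes of this and the preceding paragraph, 8 were still called without naive replicate 1 and 9 without one-week replicate 2, and all 10 without either of the other libraries.

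The function lists here and below were written with earlier results of these data known, so their shares are descriptions and not tests. Of 26 genes of secondary and tertiary granules tested, 5 were higher and 0 lower, or 19.2% against 7.99% of all genes. Their median log2 fold change was 0.1 and turned to -0.05 with offsets for length and GC content and to -0.03 without naive replicate 1, while without naive replicate 2 it was 0.26. The strongest was Pglyrp1, a granule protein that binds bacterial peptidoglycan. It was at 81.1 and 108 CPM in naive and at 314 and 263 CPM in one-week libraries (3.05-fold, log2 fold change 1.61, SE 0.146, edgeR adjusted p = 5.53e-05). Anxa1, which codes for the pro-resolving annexin of gelatinase granules, rose from 311 and 324 to 773 and 474 CPM. Lyz2, lysozyme, was among the most abundant transcripts and rose from 7869 and 10025 to 13710 and 14015 CPM. Retnlg, a resistin-like secreted protein, rose from 5619 and 5470 to 8779 and 7750 CPM, and the acute-phase protein gene Orm1 from 34.9 and 44.9 to 62.8 and 64.6 CPM. Other abundant members, Ltf and Camp among them, did not pass the test. Ltf, lactoferrin, was at 6017 and 6270 against 5241 and 5945 CPM (edgeR adjusted p = 0.539), and Camp, cathelicidin, at 17031 and 19937 against 21883 and 18859 CPM.

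The 16 primary granule genes had 0.41 as their median on the log2 scale, and without one-week replicate 2 the median was 0.13. Of them 1 passed the test, and 0 did with DESeq2, with offsets for length and GC content, without either naive library or without one-week replicate 2. Elane, neutrophil elastase, overlapped between groups. It was at 2.69 and 1.64 CPM in naive and 2.67 and 6.49 CPM in one-week libraries, with the second one-week library the highest. Of the stefin A genes, which encode inhibitors of cysteine cathepsins, Stfa2l1 and Stfa3 rose, while Stfa1 (edgeR adjusted p = 0.798), Stfa2 (0.98) and BC100530 (0.409) did not pass the test. Stfa2l1 went from 38.9 and 37.1 to 64.2 and 57.3 CPM, and Stfa3 from 17.7 and 15.6 to 39.4 and 25.7 CPM. Stefin genes are near-identical copies of each other, so reads may be split among them, and their values are uncertain. Of 7 granule and stefin genes, Pglyrp1 was still called without any one of the libraries, and without naive replicate 1 or without one-week replicate 1 it was the only one. There were 5 without naive replicate 2 and 4 without one-week replicate 2.

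Of 22 glucocorticoid-responsive genes tested, many of them feedback genes, 5 were lower and 1 higher, 27.3% in all against 7.99% of all genes. This list too was written with earlier results known, so the share is not a test. Their median log2 fold change was -0.3. Tsc22d3, known as GILZ, which blocks NF-kappaB and AP-1 and is a standard readout of the hormone, was at 344 and 238 CPM in naive and 113 and 125 CPM in one-week libraries (log2 fold change -1.29, SE 0.17, edgeR adjusted p = 0.00107). Per1, a clock gene that the receptor also induces, fell from 84 and 44.3 to 22 and 25.1 CPM. Dusp1, a phosphatase that turns off p38 and JNK, was at 2321 and 1571 CPM and then at 1080 and 1009 CPM. Nfkbia, the inhibitor of NF-kappaB, went from 724 and 492 to 338 and 414 CPM, and Klf9 from 13.7 and 12 to 7.61 and 8.95 CPM. In Per1, Dusp1, Tsc22d3 and Nfkbia the first naive library was well above the second, yet both lay above the one-week libraries. The 1 member that rose was Anxa1, described above with the granule genes. Per1 is counted again below with the clock genes, Dusp1 with the immediate early genes and Nfkbia with the NF-kappaB targets. Of these 5 lower genes, 2 were still called without naive replicate 1, without one-week replicate 1 or without one-week replicate 2, and 4 without naive replicate 2. Tsc22d3 and Per1 were called in all 4 fits.

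Of 18 circadian clock genes tested, on a list written with earlier results known, 2 were higher and 2 lower (22.2%, against 7.99% of all genes). Per1 fell as given above, while its relative Per3, another repressor of the clock, rose from 2.45 and 2.37 to 5.54 and 8.2 CPM. Csnk1e, the kinase that phosphorylates period proteins, fell from 102 and 106 to 73.8 and 67.5 CPM. Of Per3 and Csnk1e, 0 were called without naive replicate 1, without naive replicate 2 or without one-week replicate 2, and Per3 was called without one-week replicate 1.

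**Figure D2:**
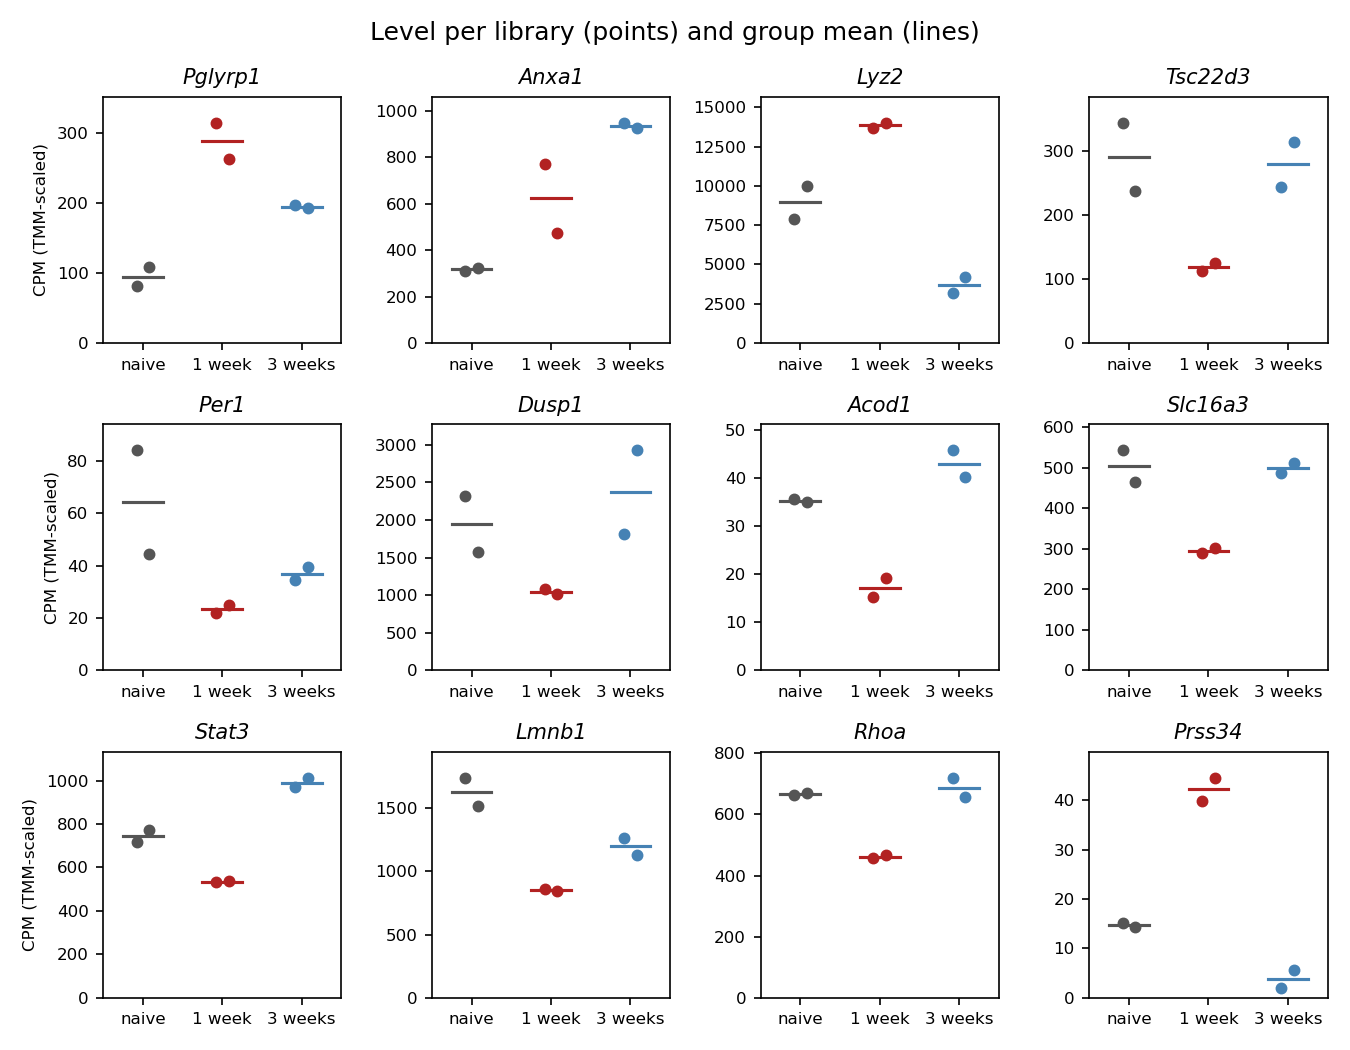
Level of 12 genes in each of the 6 libraries, in TMM-scaled CPM on axes from 0, with points for libraries and lines for group means. Pglyrp1, Anxa1, Lyz2 and Prss34 were higher in both one-week libraries than in both naive ones, and the other 8 genes lower.

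Immediate early genes, transcribed within minutes of a signal, were lower where they changed. Of 46 tested, 6 were lower and 0 higher (13%, against 7.99% of all genes), with a median log2 fold change of -0.13. The lower ones include Dusp1, given above. Fosl2, an AP-1 subunit, was at 347 and 287 against 207 and 195 CPM (log2 fold change -0.66, SE 0.121, edgeR adjusted p = 0.00674). Junb, another, was at 503 and 552 against 402 and 395 CPM. The kinase genes Plk3 and Pim3 fell as well, Plk3 from 283 and 234 to 177 and 168 CPM and Pim3 from 77.6 and 69.7 to 51.6 and 47 CPM. In the list of NF-kappaB targets and inflammatory cytokines, 2 of 38 were higher and 3 lower (13.2%), with Nfkbia, given above, among the lower ones. Il1rn, the natural antagonist of the IL-1 receptor, fell from 190 and 180 to 112 and 104 CPM, and Rel, an NF-kappaB subunit, from 13.7 and 8.84 to 4.27 and 5.3 CPM. Both higher members encode cytokines. Osm, oncostatin M, rose from 781 and 749 to 1179 and 960 CPM, and Tnfsf14, known as LIGHT, from 16.9 and 22 to 32.3 and 28.1 CPM.

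In Toll-like and IL-1 receptor signalling, 4 of 40 genes were lower and 0 higher (10%, against 7.99% of all genes). They were the kinase gene Map3k7 and the next 3. Tlr13, the mouse sensor of bacterial ribosomal RNA, was at 72.2 and 70.7 against 48.4 and 47.5 CPM. Both chains of the IL-18 receptor fell, Il18rap from 139 and 131 to 97.8 and 99.3 CPM and Il18r1 from 19 and 14.3 to 9.61 and 10.6 CPM. Trem1, which is on other lists and amplifies Toll-like receptor responses, fell from 499 and 546 to 370 and 328 CPM. Acod1, the enzyme that makes itaconate in activated myeloid cells, fell from 35.6 and 35 to 15.3 and 19.2 CPM (log2 fold change -1.04, SE 0.149, edgeR adjusted p = 0.00175); it is on no list and was chosen after its values were seen. Of 12 genes of this and the preceding paragraph other than Map3k7 and Acod1, 2 were still called without naive replicate 1, 8 without naive replicate 2, 3 without one-week replicate 1 and 1 without one-week replicate 2. Il1rn was called in every one of these fits, as was Acod1.

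In the G-CSF, GM-CSF and JAK-STAT list, 2 of 44 were higher and 2 lower (9.09%, against 7.99% of all genes). Socs2, a STAT5-induced brake on cytokine receptors, rose from 9.5 and 12.3 to 21.2 and 30.7 CPM (log2 fold change 1.25, SE 0.206, edgeR adjusted p = 0.00378). Il17ra, a receptor of IL-17, rose from 350 and 381 to 517 and 455 CPM. Il6ra, the IL-6 receptor, fell from 15.6 and 13.5 to 8.01 and 7.61 CPM, and Stat3, which carries its signal and that of G-CSF, from 715 and 773 to 531 and 538 CPM. None of these 4 genes was called without naive replicate 1 or without one-week replicate 2, 2 were without naive replicate 2, and 1 was without one-week replicate 1.

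The study measured the motility of these neutrophils, and expression was profiled to compare early with advanced tumors. Of 58 genes of small GTPase signalling and myosin contraction, 2 were higher and 5 lower (12.1%, against 7.99% of all genes). Rhoa, the GTPase that drives contraction at the rear of a moving cell, was at 663 and 669 CPM in naive and 457 and 467 CPM in one-week libraries (log2 fold change -0.53, SE 0.108, edgeR adjusted p = 0.0117). Rock1, a kinase that RhoA activates, went from 234 and 218 to 171 and 169 CPM, and Rock2 from 58.1 and 40.9 to 32.3 and 32.6 CPM. Arhgef2, an exchange factor that switches RhoA on, fell from 139 and 138 to 91.8 and 84.2 CPM. Cdc42ep3, an effector of Cdc42, rose from 42.1 and 40.5 to 76.8 and 58.3 CPM. Rac2 was at 577 and 679 against 648 and 704 CPM (edgeR adjusted p = 0.64), and Cdc42 at 381 and 392 against 344 and 321 CPM (edgeR adjusted p = 0.256). The myosin light chain gene Myl12b was at 263 and 275 against 370 and 339 CPM (edgeR adjusted p = 0.0583), and Myl12a at 304 and 305 against 305 and 282 CPM.

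Of 66 actin assembly genes, 3 were higher and 3 lower, or 9.09% against 7.99% of all genes, and between 3 and 9 were called under the other settings that kept every library. The higher ones were Coro1a, a coronin, at 301 and 420 against 581 and 571 CPM, Cfl1, which cuts filaments, at 318 and 331 against 436 and 465 CPM, and Pfn1, which feeds monomers to growing ends, at 52.4 and 60.3 against 86.4 and 70.5 CPM. Cap1, which recycles monomers, was lower at 364 and 348 against 257 and 273 CPM. Flna, the crosslinker filamin A, went from 1219 and 1127 to 867 and 890 CPM, and Arpc3, a subunit of the branching complex, from 1392 and 1375 to 995 and 1100 CPM. Of the 11 genes named as changed in this and the preceding paragraph, 0 were still called without naive replicate 1, 5 without naive replicate 2, and 1 each without one-week replicate 1 and without one-week replicate 2.

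ATP released through channels and read by purinergic receptors guides neutrophil movement. Of 28 genes of this system tested, 1 passed the test (3.57%, against 7.99% of all genes). Slc17a9, the transporter that loads ATP into vesicles, fell from 56.7 and 39.7 to 22.4 and 26.8 CPM (log2 fold change -0.97, SE 0.168, edgeR adjusted p = 0.00483). The channel gene Panx1 was at 1.9 and 2.05 against 1.67 and 2.91 CPM, and the ectonucleotidase gene Entpd1 at 36.9 and 39.9 against 42.1 and 36.4 CPM. The receptor genes were low: P2rx1 at 3.88 and 5.16 against 3.67 and 4.1 CPM, P2ry1 at 6.73 and 4.01 against 2.8 and 4.25 CPM, P2ry2 at 6.65 and 7.04 against 4.61 and 4.85 CPM, and Adora3 at 1.42 and 5.24 against 4.87 and 3.13 CPM. The edgeR adjusted p was 0.148 for P2ry2, 0.252 for P2ry1 and above these for the others.

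Among chemokines and chemoattractant receptors, 1 of 45 was higher and 1 lower (4.44%, against 7.99% of all genes). C5ar2, the second receptor of complement C5a, rose from 19.5 and 21.5 to 31 and 28 CPM. Rgs18, which shortens signals of G-protein-coupled receptors, fell from 87 and 82.4 to 54.2 and 54.2 CPM. The receptors Cxcr2, at 465 and 564 against 435 and 359 CPM, Cxcr4, at 1033 and 1106 against 906 and 786 CPM, and Cxcr1, at 1.74 and 3.85 against 2.27 and 3.43 CPM, did not pass the test. Of adhesion genes, 2 of 37 (5.41%) were called, and up to 7 under other settings. The higher one was Cd9, a tetraspanin, at 159 and 182 against 358 and 257 CPM, and the lower one Siglece, an inhibitory receptor for sialic acid, at 54.7 and 56 against 37.6 and 36.5 CPM. Of Slc17a9, C5ar2, Rgs18, Cd9 and Siglece, 0 were called without naive replicate 1 or without one-week replicate 1, 4 without naive replicate 2 and 2 without one-week replicate 2.

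By store-operated calcium entry a cell refills its calcium stores after a receptor fires. Stim1, Orai1 and Orai2, which take part in it, were noticed after the values were seen. Its other genes are not reported here, so these 3 do not stand for the whole. Stim1, the calcium sensor of the endoplasmic reticulum, fell from 38 and 29.7 to 20.7 and 17.4 CPM. Orai1, the channel pore, fell from 166 and 151 to 97.1 and 94.1 CPM (log2 fold change -0.73, SE 0.113, edgeR adjusted p = 0.00257), and Orai2 from 183 and 126 to 106 and 105 CPM. Of these 3 and Acod1, 2 were called without naive replicate 1, 4 without naive replicate 2, 3 without one-week replicate 1 and 2 without one-week replicate 2.

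Transcription factors of granulopoiesis moved down where they changed, with 6 of 36 lower and 0 higher (16.7%, against 7.99% of all genes). Ets2 was at 302 and 212 CPM in naive and 130 and 117 CPM in one-week libraries (log2 fold change -1.06, SE 0.152, edgeR adjusted p = 0.00175). Ikzf1, which encodes Ikaros, went from 311 and 265 to 191 and 195 CPM, and Irf8, a factor that favors monocytes over neutrophils, from 54.9 and 43.7 to 29.8 and 31.1 CPM. Bach1, a heme-regulated repressor, fell from 65 and 60.3 to 41.6 and 41.5 CPM, and the Myc antagonist Mxd1, abundant in mature cells, from 1662 and 1782 to 1176 and 1246 CPM. In proportion to their level, naive replicates of Ets2, Irf8 and Ikzf1 differed more than those of Bach1 and Mxd1.

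Chromatin regulators had a median log2 fold change of -0.23 over 80 genes, with 10 lower and 0 higher (12.5%, against 7.99% of all genes). With offsets for length and GC content the median was -0.15. Ep300, a histone acetyltransferase, fell from 86.2 and 72 to 43.5 and 45.9 CPM (log2 fold change -0.82, SE 0.127, edgeR adjusted p = 0.0025). Suz12, a subunit of the Polycomb methyltransferase, fell from 45.1 and 36.9 to 25.3 and 22.5 CPM, the remodeler gene Chd2 from 53.3 and 49.8 to 29 and 33.3 CPM and the demethylase gene Kdm6b from 85.2 and 71 to 54.5 and 52.1 CPM. Lmnb1, lamin B1 of the nuclear envelope, was lower by 0.93 on the log2 scale at a high level, with 1740 and 1516 CPM in naive and 862 and 848 CPM in one-week libraries (edgeR adjusted p = 0.000716). In the core spliceosome 2 of 72 genes were higher and 5 lower (9.72%). They included Sf3a2, of the U2 particle, at 43.7 and 40 against 24 and 23.6 CPM, and Lsm3, of the U6 particle, at 45.1 and 35.3 against 21.6 and 24.2 CPM. Of 12 genes of this and the preceding paragraph, 3 were still called without naive replicate 1, 11 without naive replicate 2, and 5 without either one-week library in turn.

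**Figure D3:**
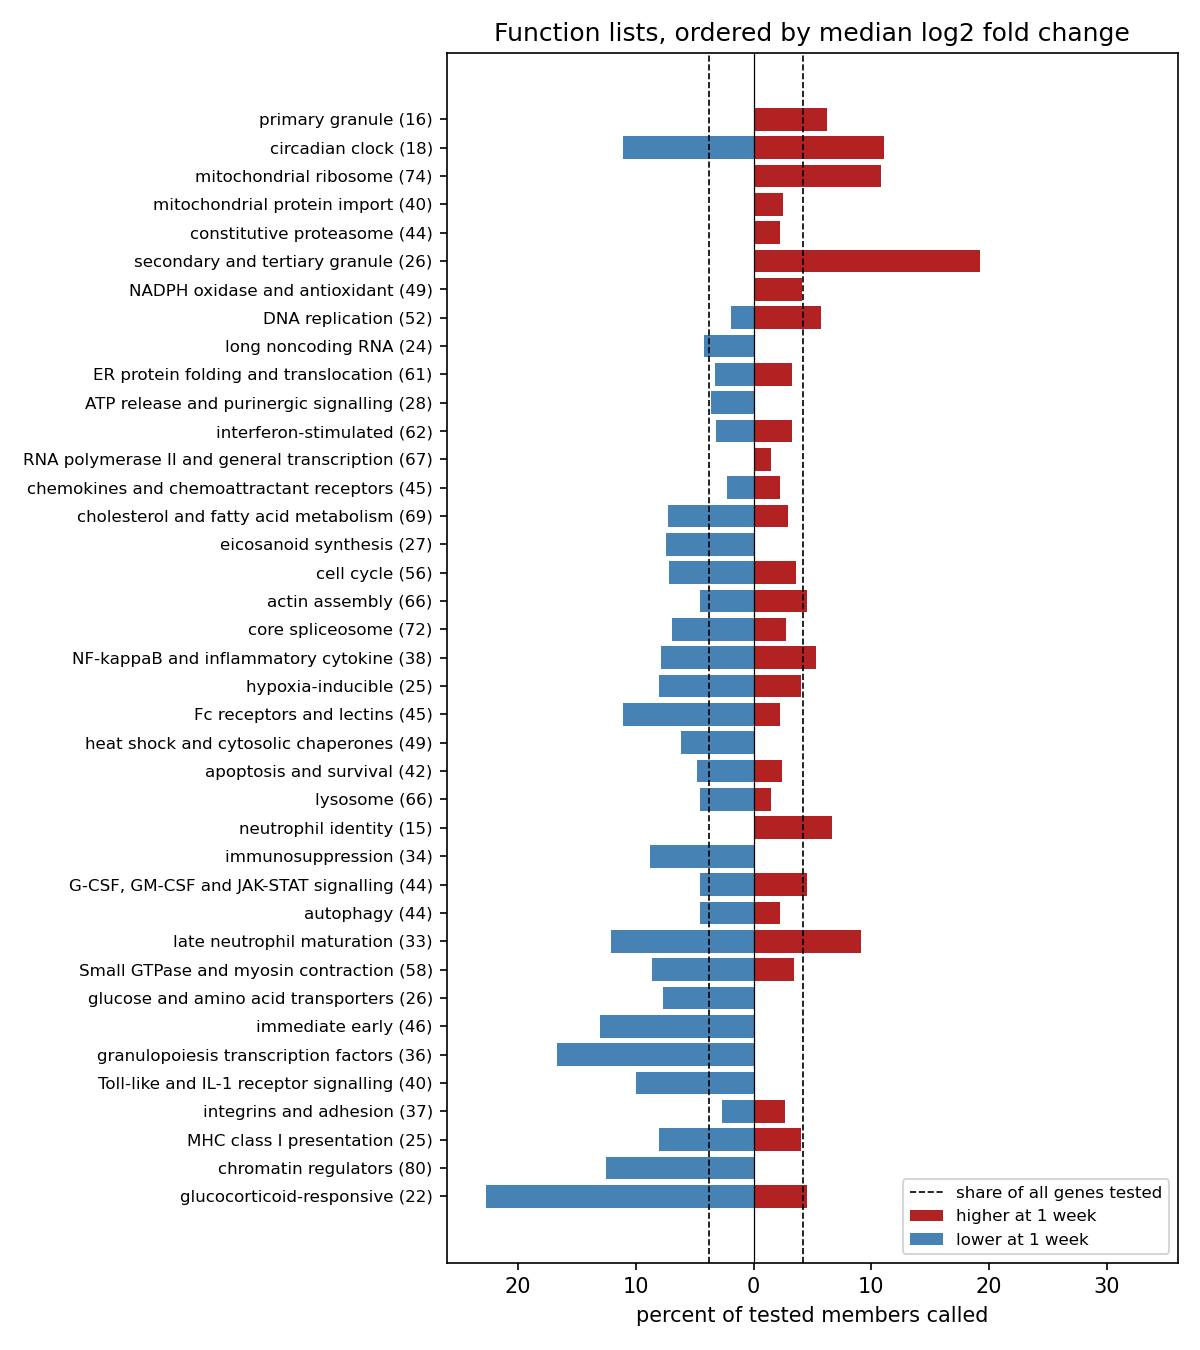
For each function list with at least 15 genes tested (number in parentheses), the percent of members higher (red, to the right) and lower (blue, to the left) at 1 week, ordered by median log2 fold change. The dashed lines mark 4.23% higher and 3.76% lower over all genes tested. Secondary and tertiary granule genes have 5 of 26 higher, and glucocorticoid-responsive genes 5 of 22 lower. Lists share some genes and were written with earlier results of these data known.

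Genes of the mitochondrial ribosome, which translates the proteins encoded in mitochondrial DNA, rose where they changed. Of 74 tested, 8 were higher and 0 lower (10.8%, against 7.99% of all genes), with a median log2 fold change of 0.14. With offsets for length and GC content 4 were called. Mrpl48 was at 30.8 and 31.4 against 52.3 and 53.6 CPM (log2 fold change 0.77, SE 0.127, edgeR adjusted p = 0.00393), Mrpl19 at 51.4 and 53.8 against 83.1 and 88.7 CPM, Mrpl20 at 23.3 and 22 against 36.6 and 36.3 CPM and Mrps16 at 6.96 and 9.66 against 15.8 and 16.6 CPM. In mitochondrial import 1 of 40 (2.5%) was higher, Tomm7 of the outer membrane, at 136 and 142 against 200 and 187 CPM. Of 49 oxidase and antioxidant genes 2 (4.08%) were higher. The thioredoxin gene Txn1 was at 689 and 752 against 1145 and 928 CPM. The glutaredoxin gene Glrx3 was at 9.5 and 9.41 against 15.6 and 14 CPM. In the proteasome 1 of 44 (2.27%) was higher, Sem1, a small lid subunit, at 443 and 462 against 681 and 560 CPM. Of these 8 genes, 0 were called without naive replicate 1, 5 without naive replicate 2, 3 without one-week replicate 1 and 2 without one-week replicate 2.

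In lipid metabolism 2 of 69 genes were higher and 5 lower (10.1%, against 7.99% of all genes). Pnpla2, the lipase that starts breakdown of lipid droplets, fell from 145 and 132 to 93.7 and 86.6 CPM (log2 fold change -0.62, SE 0.122, edgeR adjusted p = 0.00921). Plin2, a coat protein of the droplets, went from 100 and 103 to 67.1 and 72.3 CPM, and Slc25a20, which carries acylcarnitines into mitochondria, from 18.9 and 19.4 to 11.7 and 9.62 CPM. Fdps, an enzyme of the cholesterol pathway, rose from 2.85 and 4.42 to 7.68 and 7.23 CPM. Of 26 glucose and amino acid transporters, 2 were lower and 0 higher (7.69%). Slc16a3, the lactate exporter MCT4, was at 543 and 464 CPM and then at 289 and 301 CPM (log2 fold change -0.77, SE 0.116, edgeR adjusted p = 0.00216), and was called without any one library. The glucose transporter genes did not pass the test: Slc2a1 was at 14.6 and 12.1 against 12.1 and 14.9 CPM and Slc2a3 at 534 and 644 against 541 and 538 CPM. Of the 5 genes named here as changed, 1 was called without naive replicate 1, 3 without naive replicate 2, 2 without one-week replicate 1 and 1 without one-week replicate 2.

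Of 44 autophagy genes 1 was higher and 2 lower (6.82%). Of 66 lysosomal genes 1 was higher and 3 lower (6.06%), against 7.99% of all genes. Ulk1, the kinase that starts autophagy, fell from 86.7 and 78.3 to 47 and 45.8 CPM (log2 fold change -0.83, SE 0.119, edgeR adjusted p = 0.00175), and Lamp2, of the lysosomal membrane, from 271 and 303 to 204 and 202 CPM. In apoptosis and survival 1 of 42 was higher and 2 lower (7.14%). Ripk1, a kinase of TNF receptor signalling, fell from 30.6 and 33.2 to 19.3 and 16 CPM. Dffa, which holds back a nuclease of dying cells, rose from 69.8 and 61.6 to 116 and 123 CPM (log2 fold change 0.87, SE 0.124, edgeR adjusted p = 0.00175). For MHC class I, 1 of 25 was higher and 2 lower (12%). H2-K1, a heavy chain, was at 587 and 607 against 359 and 413 CPM. Psmb8, of the immunoproteasome, was at 66.1 and 73.8 against 101 and 94.3 CPM. Of these 6 genes, 3 were called without naive replicate 1, 4 without naive replicate 2, 3 without one-week replicate 1 and 2 without one-week replicate 2. Ulk1 and Dffa were called in each of the 4 fits.

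Genes of cell division, carried by the precursors in the marrow, did not move together. In the cell cycle list 2 of 56 were higher and 4 lower (10.7%). In DNA replication 3 of 52 were higher and 1 lower (7.69%). Mybl2, a transcription factor of dividing cells, rose from 134 and 125 to 198 and 199 CPM (log2 fold change 0.61, SE 0.109, edgeR adjusted p = 0.00564). Tyms, which makes thymidylate, rose from 9.97 and 10.4 to 18.1 and 15.8 CPM, and Cdc45, of the replication helicase, from 16.6 and 16.6 to 26 and 24.4 CPM. Top2a, the topoisomerase of mitotic chromosomes, fell from 176 and 151 to 99.3 and 118 CPM. Of these 4 genes, 2 were called without naive replicate 2 and 1 without any other library left out in turn. The progenitor list had 0 of 13 called. Interferon-stimulated genes had 2 of 62 higher and 2 lower, which is 6.45% against 7.99% of all genes.

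Small nucleolar RNAs (snoRNAs) guide the chemical modification of ribosomal RNA and are mostly cut from introns of other genes. They were the class most often lower. Of 63 tested, 14 were lower and 3 higher, so 22.2% were lower against 3.76% of all genes, and their median log2 fold change was -0.7. Together they held 0.0524% and 0.0413% of counts in naive and 0.0232% and 0.0269% in one-week libraries. All 14 lie within an annotated gene on the same strand. None of those host genes was called lower, but with 3.76% of all genes lower few would be. Log2 fold changes of these hosts ran from -0.95 in Srcap to 0.97 in Rpl6. The sequences of 3 of the 14 snoRNAs are shown because their host genes gave different values. They are from the GENCODE transcripts of GRCm38, 5′ to 3′. Capitals mark an ACA that stands 3 bases from the end, the box of the H/ACA class.
Snora30: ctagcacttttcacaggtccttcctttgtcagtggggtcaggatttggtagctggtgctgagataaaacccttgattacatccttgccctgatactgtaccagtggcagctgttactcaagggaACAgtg
Gm26205: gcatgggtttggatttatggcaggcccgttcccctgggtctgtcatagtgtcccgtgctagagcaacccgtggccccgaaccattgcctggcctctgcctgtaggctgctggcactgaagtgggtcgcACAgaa
Snora81: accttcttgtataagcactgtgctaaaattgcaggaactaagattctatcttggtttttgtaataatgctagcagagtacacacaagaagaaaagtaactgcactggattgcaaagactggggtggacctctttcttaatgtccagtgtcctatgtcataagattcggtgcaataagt
Snora81 has no ACA at that place. The ACA was present in 9 of the 14 lower snoRNAs and in 33 of the 63 tested.

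Snora30, at chr7:127527874-127528003 on the plus strand within Srcap, was at 123 and 85.6 CPM in naive and 37.5 and 36.5 CPM in one-week libraries (log2 fold change -1.5, SE 0.157, edgeR adjusted p = 0.000196), while Srcap had a log2 fold change of -0.95 (edgeR adjusted p = 0.207). Gm26205, at chr5:121205010-121205143 on the plus strand, was at 38.5 and 41.3 against 14.8 and 14.1 CPM (log2 fold change -1.47, SE 0.141, edgeR adjusted p = 0.000101). It lies within Rpl6, a protein of the large ribosomal subunit, which rose from 56.6 and 50.1 to 104 and 105 CPM (log2 fold change 0.97, SE 0.125, edgeR adjusted p = 0.00087), the only host called. Snora81, at chr16:23110756-23110933 on the plus strand within Eif4a2, went from 19.6 and 13.8 to 3.34 and 5.3 CPM, and Eif4a2 had a log2 fold change of 0.2 (edgeR adjusted p = 0.429). Gm24727, within Gsr, fell from 69.9 and 63 to 25.1 and 22.5 CPM. Its sequence is close to that of Gm22988, another of the 14, so reads of the pair may be split between them. Snora30, Gm26205, Snora81 and Gm24727 were called without any one library left out. The tested snoRNAs had a median length of 133 bases, against 3135 bases for protein-coding genes, and the part of length in these values was not tested.

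**Figure D4:**
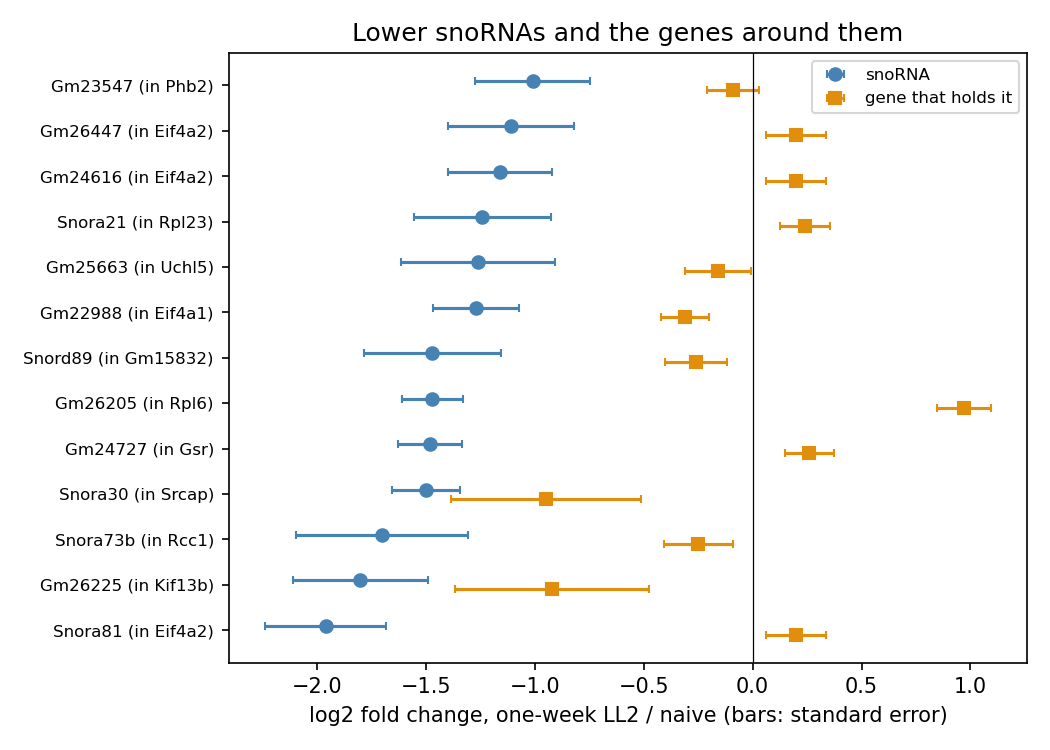
Log2 fold change (x axis, bars are standard errors) of 13 of the 14 lower snoRNAs (circles) and of the gene around each (squares). Every circle lies left of 0, and Gm26205 lies at -1.47 while its host Rpl6 lies at 0.97. Snora61 was left out because both one-week libraries had 0 counts.

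Malat1, a nuclear long noncoding RNA, was the most abundant noncoding gene that changed, and fell from 2443 and 2005 to 1193 and 1184 CPM (log2 fold change -0.9, SE 0.125, edgeR adjusted p = 0.00138). It was called in each fit with 1 library left out. The lincRNA, antisense and processed pseudogene classes had more genes higher than lower, where 4.23% of all genes were higher and 3.76% lower. Of 249 lincRNA genes 26 were higher (10.4%) and 7 lower (2.81%). Of 212 antisense genes 28 were higher (13.2%) and 3 lower (1.42%). Of 289 processed pseudogenes 58 were higher (20.1%) and 17 lower (5.88%). Whether counting used the strand is not given, so an antisense gene and its partner cannot be told apart, and a processed pseudogene can take reads of its parent. Of 10960 protein-coding genes, 365 were higher (3.33%) and 407 lower (3.71%). Lower genes had longer transcripts, with a median length of 3890 bases, against 2188 bases for higher genes and 2981 bases for genes not called. Over protein-coding genes, 11.7% of those under 500 bases were higher and 0% lower, and at 6000 bases or more 3.38% were higher and 6.89% lower. Over 12101 genes, Spearman's correlation between log2 fold change and length was -0.16 and between log2 fold change and GC content 0.05. Genes are not independent, and the part of length in the calls was not tested beyond a fit with offsets for length and GC content, which called 441 higher and 517 lower.

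**Figure D5:**
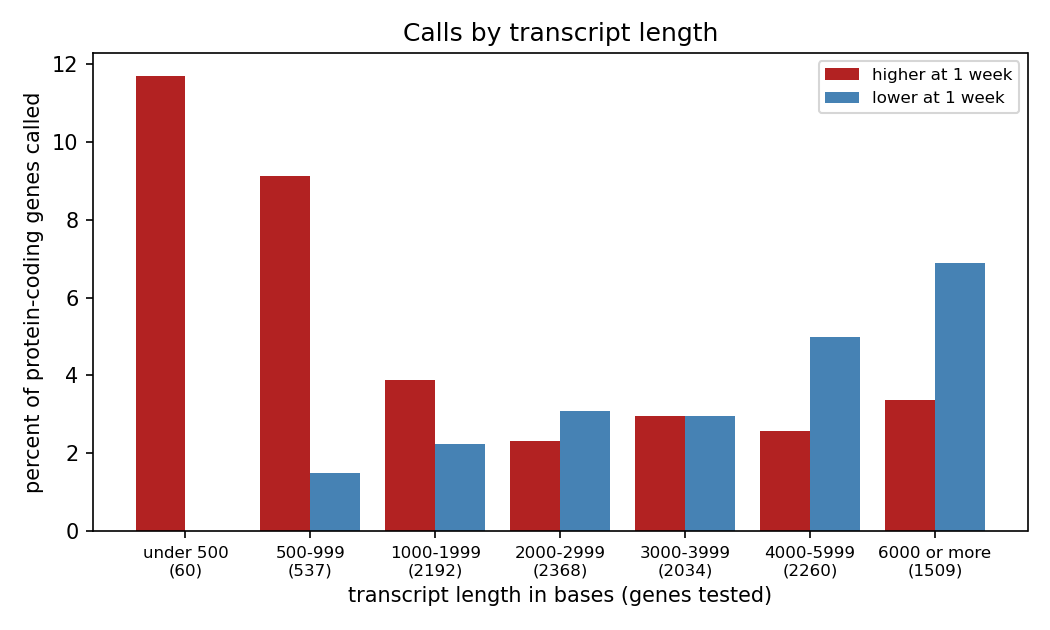
Percent of protein-coding genes called higher (red) and lower (blue) at 1 week by length of the transcript in bases, with the number of genes tested in parentheses. The share higher is 11.7% under 500 bases and 3.38% at 6000 or more, and the share lower 0% and 6.89%.

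Markers of other marrow cells were measured beside these changes, since in a sorted sample fewer cells of a type and less RNA per cell cannot be told apart. Basophil granule genes rose. Prss34, a basophil protease, was at 15.2 and 14.3 CPM in naive and 39.9 and 44.5 CPM in one-week libraries (log2 fold change 1.51, SE 0.24, edgeR adjusted p = 0.00285), and Mcpt8, another, at 4.51 and 6.06 against 15.5 and 14.5 CPM. The basophil and mast cell list had 3 of 8 tested genes higher and 1 lower, or 50% against 7.99% of all genes. The lower one was Hdc, histidine decarboxylase, which neutrophils also express, at 1447 and 1230 against 851 and 967 CPM. Of its 14 genes, 5 had at most 3 counts in all 4 libraries, and its summed level was 1480 and 1260 against 926 and 1040 CPM, most of it Hdc. Of Prss34, Mcpt8 and Hdc, 0 were called without naive replicate 1, 3 without naive replicate 2, and 1 without either one-week library. The T and NK cell list summed to 30.6 and 28.8 against 40.7 and 66 CPM, with 2 of 9 higher (22.2%). Its member Lck was at 1.19 and 1.06 against 2.4 and 9.55 CPM, high in the second one-week library. No erythroid gene of 15 and no B lineage gene of 17 was called. Erythroid genes summed to 1410 and 1250 against 1370 and 1560 CPM, B lineage genes to 130 and 228 against 142 and 128 CPM and monocyte genes to 2200 and 2110 against 1960 and 2030 CPM. In lists this short, 1 call makes a large share. Of dendritic cell genes 1 of 12 was lower (8.33%) and of eosinophil genes 1 of 8 higher (12.5%). Of stromal genes 1 of 9 was higher (11.1%), and of platelet genes 1 of 11 higher and 2 lower (27.3%). The part of these cells in the changes above was not tested.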

How the data were processed

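RNA of bone marrow cells selected on Ly6G was sequenced in 2 libraries each from naive, one-week LL2 and three-week LL2 mice, and the legend of the study's figure gives 3 samples per group. Per the labels, total RNA libraries were read from 1 end, aligned with Bowtie2 to mm10 and quantified with RSEM 1.2.31, which the submitters' notes list, while the methods name another release. The values the authors deposited are RSEM's expected counts for each gene, already whole, and were used without further rounding. Totals ran from 11994158 to 14127919 counts. No other column was used.

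Of 38887 identifiers, 37570 matched GENCODE annotation of the same build, GRCm38, which gave symbols, classes and lengths. Genes passing edgeR's filterByExpr with a minimum count of 10 were scaled by TMM and tested by quasi-likelihood in edgeR 4.0.16 under R 4.3.3. The model held all 6 libraries, and adjustment followed Benjamini and Hochberg. Among tested genes, 25 had counts identical to another gene. The standard errors were derived from the F statistic. Replicate numbers come from the labels and did not pair libraries.

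Named genes were the 15 largest rises and 15 largest falls among called protein-coding genes with a mean of at least 5 CPM in the higher group, the 5 called genes with the smallest adjusted p in each list (the 2 most abundant where fewer were called), genes of the study's motility and purinergic experiments, the 15 most abundant called genes and the 5 most abundant called noncoding ones; only some are named, and some eligible genes are not reported here. Members and lists were chosen with earlier results of these data known. Outside this rule are Acod1, Stim1, Orai1, the Y-linked genes, Orai2, Stfa1, Stfa2, Stfa3, BC100530, Klf9, Junb, Pfn1, Rpl6, Srcap, Eif4a2 and the snoRNAs, chosen after their values were seen. Ltf, Camp, Elane and Csf3r are outside the rule as well. Alternatives were DESeq2 1.42.0, limma 3.58.1, other scalings, filters, offsets, thresholds, a replicate block and each library left out.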

Additional observations from a re-analysis of the deposited data

Results flagged for a closer look

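The change from naive to 1 week and the change from naive to 3 weeks after injection differed, at an adjusted p under 0.05 in edgeR's quasi-likelihood test with Benjamini-Hochberg adjustment, for 68 of the 103 genes named as changed. The share of all genes tested that differed between these weeks is not given here, so this count cannot be read as particular to the named genes. Each value below is the log2 difference, 3 weeks minus 1 week. This comparison shares the one-week libraries with the one that named the genes, so a return toward the naive level is favored by the choice of genes. No cause was tested.

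Granule genes went both ways. The difference was -0.57 for Pglyrp1, -1.91 for Lyz2 and -2.22 for Orm1, and 0.59 for Anxa1, 1.91 for Stfa2l1 and 3.67 for Stfa3, which stood at 498 and 332 CPM at 3 weeks. Feedback genes of glucocorticoids were higher at 3 weeks than at 1 week, by 1.23 for Tsc22d3, 1.18 for Dusp1, 0.95 for Nfkbia and 1.6 for Klf9. Per3 differed by -1.08.

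Of inflammatory genes, Junb differed by 0.77, Tlr13 by 0.79, Il18rap by 0.7, Il18r1 by 0.55, Trem1 by 0.39 and Acod1 by 1.32. Tnfsf14 and Osm, higher at 1 week, were higher still by 0.49 and 0.48, and Il1rn, lower at 1 week, was lower still at -1.31. Socs2 differed by -0.82, Il6ra by 1.32 and Stat3 by 0.89.

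Of motility and receptor genes, Rhoa and Cap1 each differed by 0.57, Flna by 0.51, Arpc3 by 0.82 and Pfn1 by 0.93. Slc17a9 differed by 0.74, Siglece by 1.07, C5ar2 by -0.58, Cd9 by -0.62, Stim1 by 0.5 and Orai1 by 0.36. Of nuclear genes, Bach1 differed by 1.13, Ep300 by 0.55, Kdm6b by 0.43 and Lmnb1 by 0.49.

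In metabolism, the difference was 0.65 for Pnpla2, 1.52 for Fdps, 1.39 for Slc25a20, 1.03 for Plin2 and 0.76 for Slc16a3, and in the mitochondrial ribosome -0.38 for Mrpl48 and -0.59 for Mrps16. Lamp2 differed by 0.69, Ulk1 by 1, Ripk1 by 1.22, Dffa by -0.54 and Psmb8 by -0.5. The named genes of dividing cells differed by -0.71 for Mybl2, -0.74 for Top2a, -0.6 for Tyms and -0.89 for Cdc45. The cell cycle list as a sum overlapped, at 4780 and 4990 CPM at 1 week and 4910 and 4570 CPM at 3 weeks. The DNA replication list summed to 1190 and 1100 CPM at 1 week and to 950 and 872 CPM at 3 weeks.

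Among the largest changes, Cacnb4 differed by -2.11, Piezo2 by -1.34, Cr2 by -1.5 and Napb by -1.23, and Epha5 by 1.21, Dbt by 0.87 and Akna by 1.11. Malat1 differed by 0.54, Snora30 by 1.39, Snora81 by 1.83, Gm24727 by 1.11 and Gm26205 by 0.72. The basophil genes Prss34 and Mcpt8 differed by -3.45 and -2.76, with Prss34 at 2.09 and 5.61 CPM at 3 weeks.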

How the results depend on the processing

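With 1 library left out, the number of genes changed ran from 148 to 676, of genes higher from 83 to 346 and of genes lower from 65 to 330, against 979, 518 and 461. Without a filter on low counts there were 1537, 838 and 699. At an adjusted p under 0.01 there were 274, 161 and 113, and with a change over 2-fold in addition to the main threshold 346, 255 and 91. Scaling by library totals alone left 263 lower genes; why was not tested. Under the other settings all 3 counts stayed within 1.5 times the main ones, with DESeq2 calling 907 genes on all 6 libraries and 885 on the 4 compared, and edgeR 1123 on the 4. Leaving out a library could hardly turn a direction, since libraries of called genes did not overlap between groups. None of the 103 named genes changed direction under any setting run. Of these, 6 lost their call with DESeq2 on all 6 libraries, 14 with library totals, 13 with offsets for length and GC content, and between 28 and 75 with 1 library left out. Counts over function lists were less stable: for 27 of 39 lists the number called moved by over 1.5 times under at least 1 setting other than a left-out library, and for 16 of 39 the median changed sign under at least 1 setting. The median ran from -0.19 to -0.07 for immediate early genes, from -0.28 to -0.15 for chromatin regulators and from 0.07 to 0.25 for the mitochondrial ribosome. Replicate numbers did not pair libraries (Pearson's r of same-numbered deviations between 0.0101 and 0.0379); with a replicate block 959 genes were called, 521 higher and 438 lower, and with block and offsets 979. Depth set the detection limit at 0.2 to 0.245 CPM per library.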
